A study of Homo sapiens with 12 samples.

Results

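The genes that encode the proteasome were followed in a breast cancer cell line treated with estradiol (E2), with tumor necrosis factor alpha (TNFα), or with both. Members were chosen by name: every gene in the count table whose symbol begins with PSMA, PSMB, PSMC, PSMD, PSME, PSMF or PSMG followed by a number, other than PSMB8 and PSMB9. This gave 44 of the 12451 genes in the table, and all 44 were among the 11303 genes tested. They were 7 genes of the outer alpha rings and 8 of the inner beta rings of the core particle, 6 ATPases, 11 non-ATPases and 3 assembly factors of the regulatory particle, 4 activators, 1 inhibitor and 4 assembly factors of the core. PSMA8 and PSMB11 were not analysed here.

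The proteasome is the protease complex that degrades most short-lived and damaged proteins of a cell, usually after they are tagged with ubiquitin. Its barrel-shaped core holds the cutting sites on the inner beta rings, while the outer alpha rings gate the entrance. The regulatory particle recognizes, unfolds and feeds in ubiquitin-tagged proteins, and other caps, the activators, open the gate in its place. Inflammatory cytokines are known to exchange some subunits and caps for others, and the degradation of the inhibitor of NFκB by the proteasome is a step of TNFα signaling.

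MDA-MB-231-ERβ cells are a triple negative breast cancer line engineered to express estrogen receptor beta (ERβ) when doxycycline (dox) is added. All cells were grown in charcoal-stripped serum and, per the study's methods, with dox, so that ERβ was induced in the vehicle group as well. Dox is missing from the label of the group given both agents. The 4 groups, each of 3 libraries, were vehicle, 1 nM E2 for 5 days, vehicle for 5 days with 20 ng/ml TNFα for the last 3 hours, and E2 with TNFα at the same doses and times. The cells are 1 engineered line, grown for each group in triplicate dishes per the study's methods, which call replicates of cell experiments biological, so p-values measure the spread between dishes of that line. As poly(A) RNA from whole dishes was measured, fewer cells of a kind and less RNA per cell cannot be told apart.

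Between 7652016 (E2 replicate 2) and 39943664 (vehicle replicate 3) reads per library were assigned to genes. ESR2, which encodes ERβ, stood between 228 and 508 CPM (counts scaled to the normalized library size) in every library, and VIM and CD44, known markers of this mesenchymal line, stood at or above 1042 and 722 CPM. ERBB2 stood between 85.7 and 123 CPM, and the epithelial genes EPCAM and CDH1 between 6.54 and 15.7 and between 1.77 and 53.4 CPM. ESR1, PGR and PTPRC were not analysed here. The 3 vehicle libraries stood apart from the 9 others by the GC content of genes. Over all 11303 genes tested, Spearman's rho between the log2 fold change and exon GC content was 0.66 for E2, 0.71 for TNFα and 0.67 for E2+TNFα, each relative to vehicle. Genes with under 45% GC had a median log2 fold change of -1.59 with E2, and those with more of 0.47. The study's methods mention a correction of batches by housekeeping genes (RUV), run here as an alternative on the deposited raw counts, but neither they nor the labels say which libraries form a batch, so a difference in how the libraries were made and the treatments cannot be told apart. Most changes relative to vehicle, and those with E2 for all members, are therefore given beside their values after smooth trends over GC content and gene length were removed from each library ("trends removed").

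Relative to vehicle, the proteasome genes did not move as one block in any of the treated groups. A gene was called past the thresholds when its log2 fold change reached 1.5 in either direction with p under 0.05 and adjusted p no higher than 0.1 (edgeR's quasi-likelihood F test, Benjamini-Hochberg over all genes tested). With E2, 2 of the 44 members were higher, against 9.87% of all genes, and 7 were lower, against 20.6%. With TNFα, none was higher, against 6.64% of all genes, and 11 were lower, against 20.0%. With E2+TNFα, none was higher, against 7.52%, and 6 were lower, against 17.6%. DESeq2 called 9, 11 and 6 members in these comparisons, against 30.6%, 26.6% and 25% of all genes. In edgeR, 37, 34 and 36 members had an unadjusted p under 0.05, against 79.4%, 79.4% and 77.6% of all genes. With a factor of unwanted variation estimated from 20 housekeeping genes (RUV), 4, 2 and 3 members were called, against 14.5%, 8.88% and 11.3% of all genes. At an adjusted p up to 0.1, whatever the size, 21 members were higher and 17 lower with E2, against 40.1% and 41.6% of all genes, and the test called 16 and 19 with TNFα, against 40.3% and 41.6%. With E2+TNFα the counts were 17 and 19, against 39.0% and 41.5%. The median log2 fold change of the members was 0.19 with E2, -0.20 with TNFα and -0.09 with E2+TNFα, where that of all genes was -0.02, 0.01 and -0.03. These 3 comparisons share the vehicle libraries, so a change seen in all of them is not a repeat of it.

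**Figure D1:**
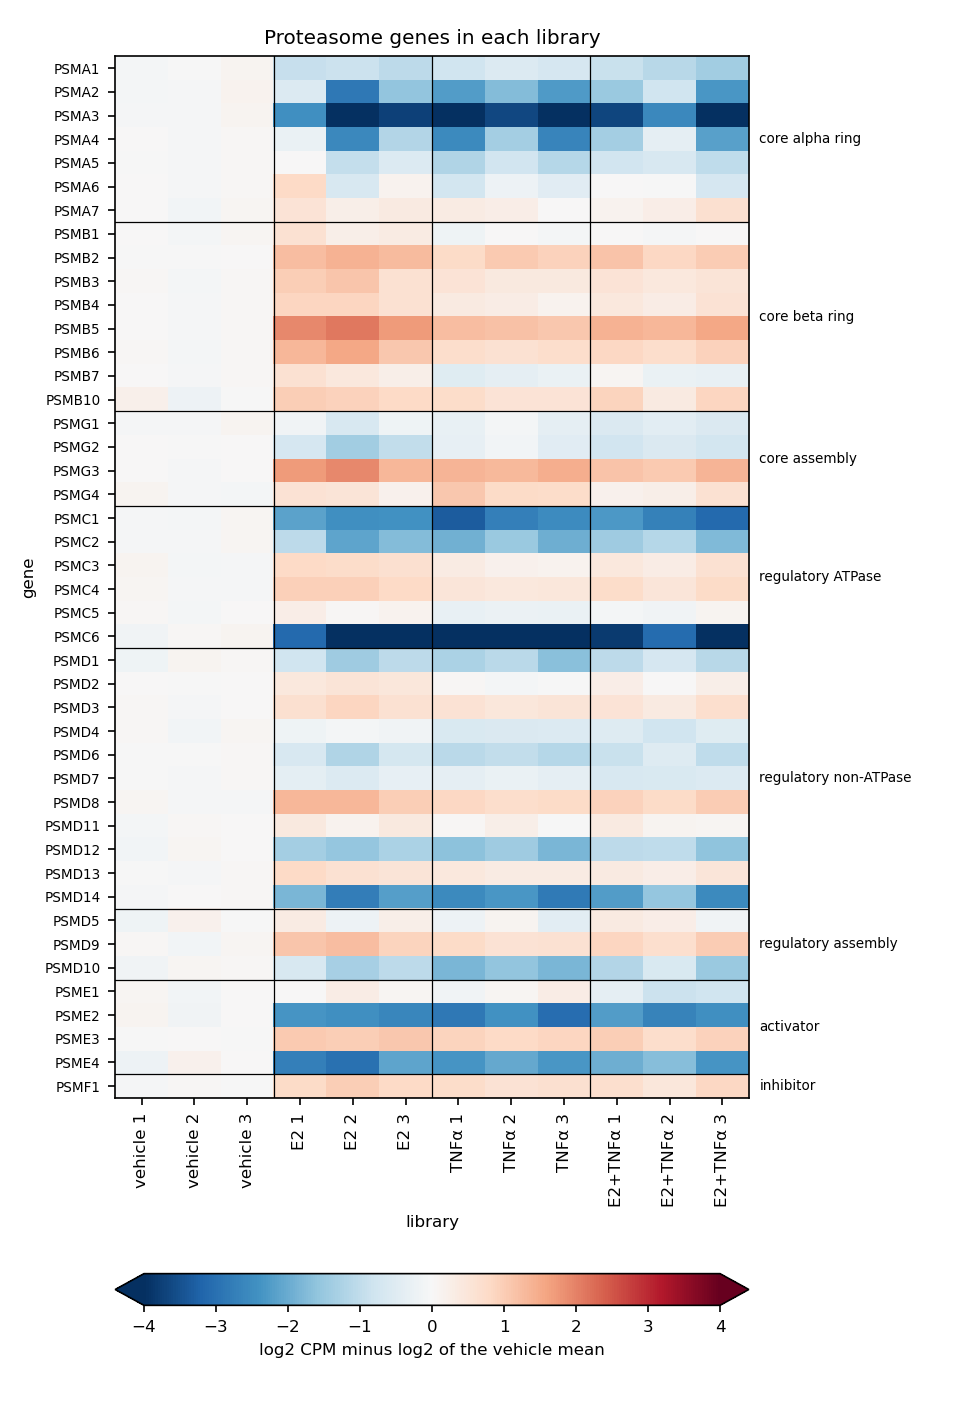
Each row is 1 of the 44 genes and each column 1 of the 12 libraries; color gives log2 CPM minus log2 of the vehicle mean, and values beyond 4 in either direction take the end color. PSMA3 and PSMC6 are the darkest rows in the 9 treated libraries, and 6 of the 8 beta ring genes are red in all 9 treated libraries.

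The subunits of the 2 kinds of core ring differed in direction relative to vehicle. With E2, 8 of 8 beta ring genes rose (adjusted p up to 0.1), with a median log2 fold change of 0.91, and of 7 alpha ring genes 1 rose and 4 fell, with a median of -0.94. With TNFα, 6 beta ring genes rose and 1 fell (median 0.53), and 5 alpha ring genes fell (median -1.02). With E2+TNFα, 6 beta ring genes rose (median 0.61), and 1 alpha ring gene rose and 4 fell (median -1.11). Of all genes, 40.1%, 40.3% and 39.0% rose in these 3 comparisons, and 41.6%, 41.6% and 41.5% fell. The summed level of the beta ring per length (RPKM, CPM per kilobase of exon) was 1.59, 1.55 and 1.52 times that of the alpha ring in the vehicle libraries. It was 2.91, 4.93 and 3.21 times with E2, 2.99, 2.64 and 3.17 times with TNFα, and 3.09, 2.48 and 2.95 times with E2+TNFα. None of the treated libraries overlapped the vehicle range. With trends removed, the medians for E2 were -0.04 in the beta ring, where 3 genes were higher and 3 lower, and 0.12 in the alpha ring, where 1 was higher and 2 lower, against 38.9% and 38.4% of all genes. The beta and alpha ring medians were then -0.13 and -0.42 for TNFα, and -0.18 and -0.12 for E2+TNFα.

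**Figure D2:**
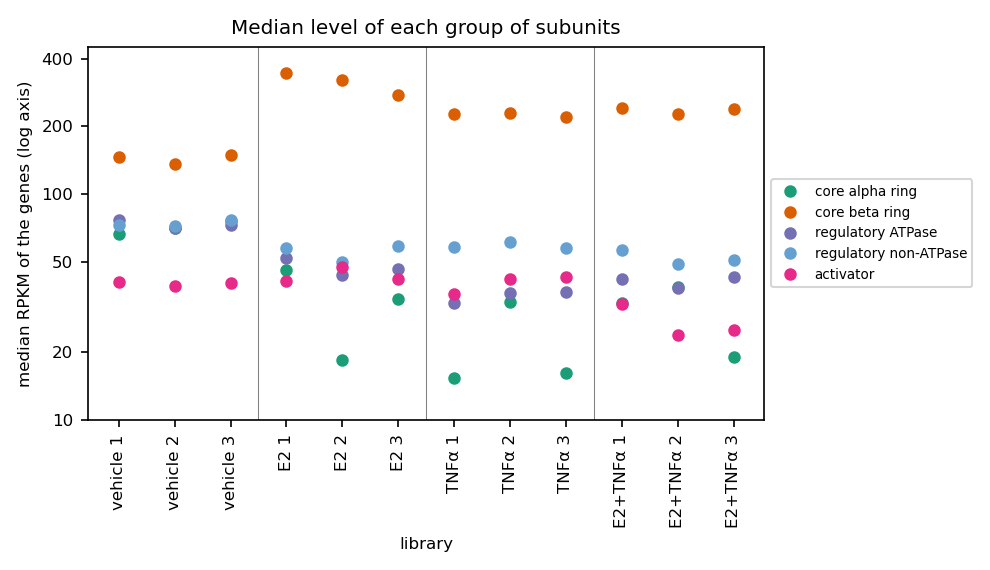
Points give the median RPKM (log axis) of 5 groups of subunits in each of the 12 libraries. The beta ring lies between 136 and 149 RPKM in vehicle and above it in all 9 treated libraries, and the alpha ring lies lower in all of these.

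PSMB5, located at chr14:23016543-23035220 (hg38), encodes the catalytic beta subunit with the chymotrypsin-like activity that proteasome inhibitor drugs bind. PSMB5 stood at 179, 169.8 and 181 CPM in the vehicle libraries and at 673, 757 and 574 with E2. With TNFα, PSMB5 stood at 412, 396 and 374 CPM, and with E2+TNFα at 465, 439 and 514. The 4 groups did not overlap, with vehicle lowest, TNFα and E2+TNFα next, and E2 highest. Its log2 fold change relative to vehicle was 1.92 ± 0.12 (SE, adjusted p = 2.36e-09) with E2, past the thresholds, and 1.16 and 1.42 with TNFα and E2+TNFα, which passed the adjusted p alone. The 3 values were 1.51, 0.93 and 1.14 with trends removed. By level per length PSMB5 ranked 9 among the 44 members in vehicle and 4 with E2.

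The other catalytic subunits moved less. PSMB6 carries the caspase-like site. PSMB6 stood at 155, 142 and 157 CPM in the vehicle libraries and at 379, 443 and 322 with E2. With TNFα, PSMB6 stood at 248, 229.8 and 248 CPM, and with E2+TNFα at 269, 244 and 288. Vehicle libraries were lowest and E2 libraries highest, with no overlap, and the TNFα and E2+TNFα libraries overlapped. PSMB6 rose with E2 by 1.33 ± 0.12 (SE, adjusted p = 1.15e-07) on the log2 scale, which became 0.24 with trends removed (adjusted p = 0.00962). PSMB7 carries the trypsin-like site. PSMB7 stood at 90.7, 85.8 and 91.7 CPM in the vehicle libraries and at 136, 119 and 106 with E2. With TNFα, PSMB7 stood at 64.5, 70.1 and 73.8 CPM, and with E2+TNFα at 95.02, 75.01 and 72.6. E2 libraries lay above vehicle and TNFα libraries below it, and those with E2+TNFα overlapped vehicle. The log2 fold changes of PSMB7 were 0.43 ± 0.13 (SE, adjusted p = 0.00713) with E2 and -0.36 ± 0.13 (SE, adjusted p = 0.0179) with TNFα, and -0.20 and -0.66 with trends removed, so the direction with E2 turned. PSMB10 replaces PSMB7 in the immunoproteasome, the form that cytokines induce. PSMB10 stood at 17.4, 13.2 and 15.1 CPM in the vehicle libraries and at 30.04, 28.9 and 26.5 with E2. With TNFα, PSMB10 stood at 25.4, 22.2 and 22.1 CPM, and with E2+TNFα at 28.1, 19.7 and 27.9. All 9 treated libraries lay above vehicle, E2 lay above TNFα without overlap, and E2+TNFα overlapped both. PSMB10 had a log2 fold change of 0.90, 0.61 and 0.73 with E2, TNFα and E2+TNFα, and of -0.25, -0.28 and -0.22 with trends removed, so that all 3 turned negative. The annotation has another protein-coding gene on the same strand over 550 bases of PSMB10's exons.

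Among the structural beta subunits, PSMB2 had log2 fold changes of 1.30, 0.92 and 1.00. With trends removed they were larger, at 2.14, 1.67 and 1.69 (adjusted p = 9.09e-10 with E2). PSMB2 holds 44.9% GC, the lowest share in the beta ring. PSMB1, PSMB3 and PSMB4 had log2 fold changes between 0.40 and 0.92 with E2, and between -0.15 and -0.03 with trends removed.

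**Figure D3:**
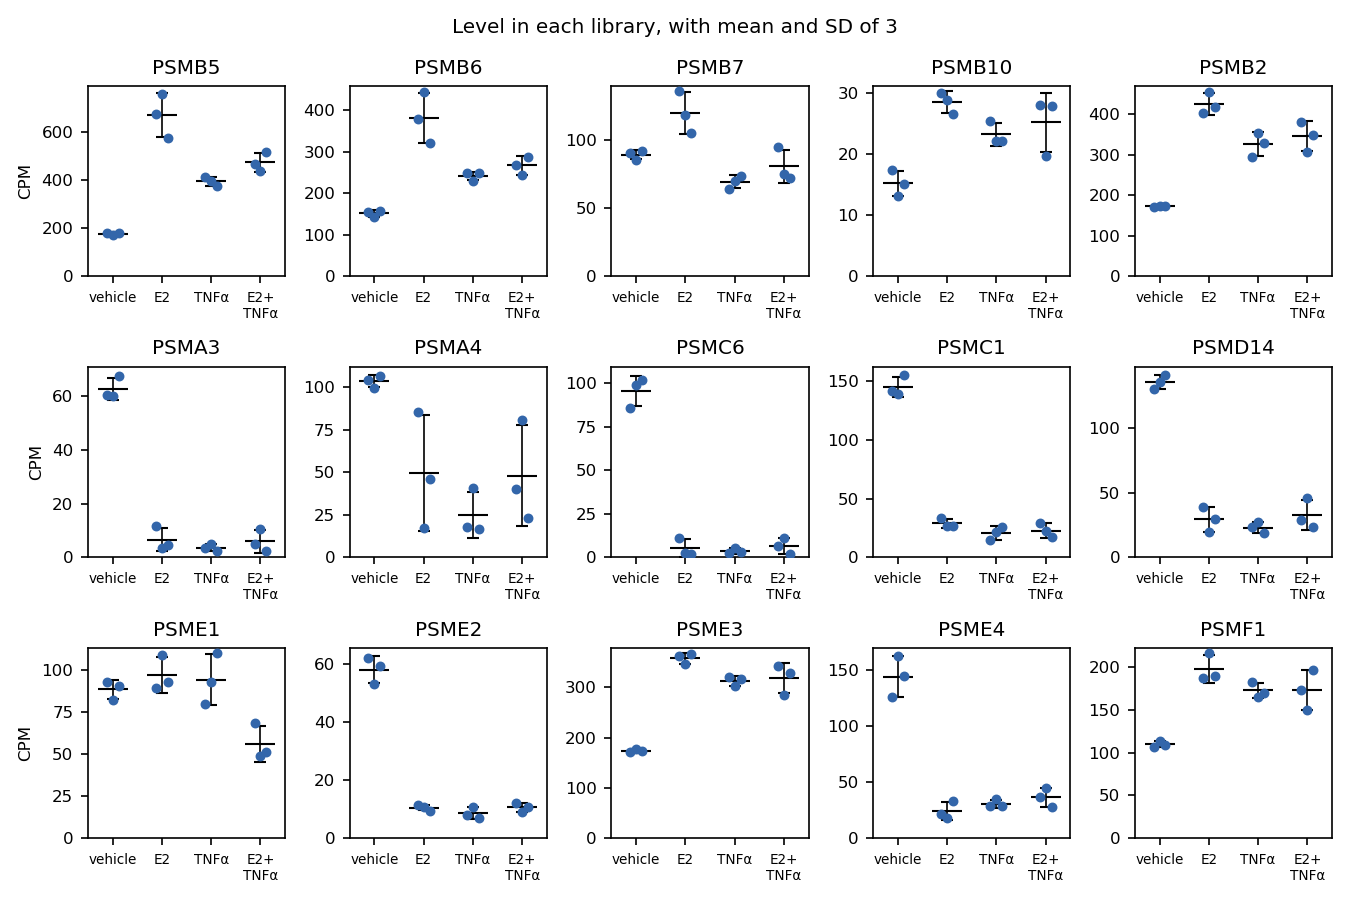
Points give CPM in each library for 15 of the genes, with the mean and SD of 3 libraries as bars. PSMB5 shows 4 groups apart from each other, PSMA3, PSMC6, PSMC1, PSMD14, PSME2 and PSME4 are high in vehicle alone, and PSME1 is low in E2+TNFα alone.

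In the alpha ring, PSMA3, a subunit of the gate-forming ring, fell furthest. PSMA3 stood at 60.4, 60.2 and 67.6 CPM in the vehicle libraries and at 11.5, 3.51 and 4.70 with E2. With TNFα, PSMA3 stood at 3.33, 4.99 and 2.39 CPM, and with E2+TNFα at 4.95, 10.6 and 2.28. Vehicle libraries did not overlap the others, whose highest value was 11.5 CPM. PSMA3 had log2 fold changes of -3.18 ± 0.52 (SE, adjusted p = 0.000133) with E2, -4.11 ± 0.53 (SE, adjusted p = 2.01e-05) with TNFα and -3.40 ± 0.51 (SE, adjusted p = 7.32e-05) with E2+TNFα. They were -2.02, -2.69 and -2.37 with trends removed, still past the thresholds. With the RUV factor PSMA3 was at 0.83 with E2 and did not pass (adjusted p = 0.506). PSMA2 and PSMA4, of the same ring, were called lower with TNFα. PSMA2 stood at 93.1, 94.5 and 108 CPM in the vehicle libraries and at 67.5, 13.6 and 33.01 with E2. With TNFα, PSMA2 stood at 21.1, 29.6 and 20.6 CPM, and with E2+TNFα at 35.5, 56.6 and 19.7. Vehicle lay above all others. PSMA4 stood at 104, 99.6 and 107 CPM in the vehicle libraries and at 85.4, 17.2 and 46.3 with E2. With TNFα, PSMA4 stood at 17.7, 40.6 and 16.6 CPM, and with E2+TNFα at 40.3, 80.6 and 23.2. The E2 libraries were spread from 17.2 to 85.4 CPM, and the 9 treated libraries overlapped each other while vehicle lay above them. With TNFα, PSMA2 fell by 2.05 and PSMA4 by 2.04 on the log2 scale (adjusted p = 0.00225 and 0.00904), and with trends removed the values were -0.44 and -0.71 (adjusted p = 0.206 and 0.161). With E2 PSMA4 did not pass the test, at -1.03 ± 0.58 (SE, adjusted p = 0.126). A readthrough transcript covers all of PSMA2's exons on the same strand. Other annotated protein-coding genes on the same strand lie over 994 bases of PSMA6's exons and 814 of PSMA1's. PSMA5 had a log2 fold change of -0.42 with E2 and of 1.59 with trends removed, at 38.2% GC. With E2, PSMA1 fell by 0.94 on the log2 scale and PSMA7 rose by 0.39, while PSMA6 was at 0.22 (adjusted p = 0.484). With trends removed PSMA1 was at 0.09 (adjusted p = 0.55) and PSMA6 at 0.17 (adjusted p = 0.477), and PSMA7 turned to -0.59 (adjusted p = 0.00011). PSMA2 and PSMA4 were then at 0.12 and 0.13 with E2, and neither passed.

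The chaperones that build the core, the PSMG genes, were split. PSMG3 and PSMG4 form one pair and PSMG1 and PSMG2 the other. PSMG3 stood at 21.04, 19.9 and 21.1 CPM in the vehicle libraries and at 67.9, 78.6 and 51.8 with E2. With TNFα, PSMG3 stood at 53.2, 50.5 and 57.2 CPM, and with E2+TNFα at 45.99, 42.4 and 52.7. All treated libraries lay above vehicle. PSMG3 rose with E2 by 1.67 ± 0.15 (SE, adjusted p = 7.73e-08), past the thresholds, and by 0.69 with trends removed, and by 1.38 and 1.19 with TNFα and E2+TNFα. PSMG2 fell with E2 by 0.97 on the log2 scale, PSMG1 was at -0.29 and PSMG4 at 0.43. With trends removed they were at -0.27, -0.80 and 0.07.

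The ATPases of the regulatory particle form the ring that unfolds substrates. Of the 6, 3 were past the thresholds downward with E2 and with TNFα, against 20.6% and 20.0% of all genes. PSMC6, at chr14:52707178-52727998 (hg38), had the largest change of all members relative to vehicle. PSMC6 stood at 86.1, 98.9 and 102 CPM in the vehicle libraries and at 11.2, 2.39 and 2.17 with E2. With TNFα, PSMC6 stood at 2.31, 5.29 and 3.33 CPM, and with E2+TNFα at 6.74, 11.2 and 1.89. Vehicle libraries lay above the others, of which E2 replicate 1 and E2+TNFα replicate 2 were the highest. By mean level per length PSMC6 went from 60.1 RPKM in vehicle to 3.29, 2.28 and 4.16 with E2, TNFα and E2+TNFα, and in these 3 groups it was the lowest of the 44 members. Its log2 fold change was -4.07 ± 0.70 (SE, adjusted p = 0.000329) with E2 and -4.71 ± 0.70 (SE, adjusted p = 0.000122) with TNFα, and -2.29 and -2.80 with trends removed. With the RUV factor it was at 0.65 with E2 and did not pass (adjusted p = 0.76). PSMC6 has the lowest GC content of the members (38.0%), and the genome holds an intronless copy of it over 1510 bases at 97.9% identity. The others of the 7 members with a copy elsewhere were PSMA6, PSMC1, PSMD2, PSMD4, PSMD8 and PSME2, and the part of the copies in these values was not tested.

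PSMC1 was called in all 3 comparisons with vehicle. PSMC1 stood at 142, 139 and 155 CPM in the vehicle libraries and at 33.1, 26.5 and 27.04 with E2. With TNFα, PSMC1 stood at 14.4, 21.96 and 25.6 CPM, and with E2+TNFα at 29.2, 22.3 and 16.9. All vehicle libraries lay above all others. Its log2 fold changes were -2.32 ± 0.21 (SE, adjusted p = 1.03e-07) with E2, -2.82 with TNFα and -2.68 with E2+TNFα, and -2.22, -2.57 and -2.52 with trends removed. Reads of PSMC1 may also fit an intronless copy over 1555 bases at 99.8% identity, and 847 bases of its exons lie opposite NRDE2, so its count is uncertain. PSMC2 stood at 89.6, 90.6 and 98.3 CPM in the vehicle libraries and at 45.2, 21.4 and 27.9 with E2. With TNFα, PSMC2 stood at 24.8, 33.1 and 24.2 CPM, and with E2+TNFα at 34.4, 41.8 and 27.4. Vehicle lay above all others. PSMC2 fell with E2 by 1.54 and with TNFα by 1.76 on the log2 scale, but with trends removed it was at 0.15 and -0.07. Without E2 replicate 2 the value with E2 was -1.29 and without E2 replicate 3 it was -1.49, under the size threshold. PSMC3, PSMC4 and PSMC5 lay between 0.16 and 0.90 with E2. With trends removed PSMC3 and PSMC5 turned to -0.17 and -0.68 (adjusted p = 0.0197 and 1.75e-07), and PSMC4 was at 0.18.

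Of the 11 non-ATPase subunits, 5 rose and 5 fell with E2 (adjusted p up to 0.1), and 3 rose and 6 fell with TNFα. Among all genes, 40.1% rose and 41.6% fell with E2, and 40.3% and 41.6% with TNFα. The 5 that rose with E2 were PSMD2, PSMD3, PSMD8, PSMD11 and PSMD13, with log2 fold changes from 0.31 to 1.21, and the 5 that fell were PSMD1, PSMD6, PSMD7, PSMD12 and PSMD14, from -2.19 to -0.42. With trends removed 3 non-ATPases were higher with E2 (PSMD8, PSMD11 and PSMD12), against 38.9% of all genes. Lower were 6 (PSMD1, PSMD2, PSMD3, PSMD4, PSMD6 and PSMD14), against 38.4%. Directions turned for PSMD2, at -0.16, PSMD3, at -0.13, and PSMD12, at 0.40 (adjusted p = 0.0346, 0.0639 and 0.00904), and for PSMD13, at -0.04, which did not pass. PSMD1, PSMD6, PSMD7 and PSMD11 were at -0.26, -1.08, -0.15 and 0.59. PSMD14 is the enzyme that removes ubiquitin from a bound substrate. PSMD14 stood at 129.9, 136 and 141 CPM in the vehicle libraries and at 38.5, 19.8 and 29.5 with E2. With TNFα, PSMD14 stood at 23.02, 27.02 and 18.98 CPM, and with E2+TNFα at 28.9, 45.9 and 23.04. Vehicle lay above all others. PSMD14 had log2 fold changes of -2.19 ± 0.25 (SE, adjusted p = 1.32e-06), -2.55 and -2.05 with E2, TNFα and E2+TNFα, and of -1.57, -1.83 and -1.45 with trends removed. PSMD12 is a scaffold of the lid that holds PSMD14. PSMD12 stood at 76.6, 86.6 and 83.1 CPM in the vehicle libraries and at 31.8, 28.2 and 33.8 with E2. With TNFα, PSMD12 stood at 26.5, 30.3 and 23.04 CPM, and with E2+TNFα at 39.9, 40.3 and 26.6. Vehicle was again apart. It fell with TNFα by 1.62 on the log2 scale and was at 0.18 with trends removed. PSMD2, the large base subunit, was the highest of the 44 members in every group by level per length, at 426 RPKM in vehicle and 588 with E2. PSMD8, in the lid, had the largest rise of the non-ATPases with E2, at 1.21, and was at 0.28 with trends removed. PSMD4, a ubiquitin receptor, was at -0.13 ± 0.11 (SE, adjusted p = 0.281) with E2 and fell with trends removed, by 0.91. Among the assembly factors, PSMD10 (gankyrin) was called with TNFα. PSMD10 stood at 37.5, 44 and 43.5 CPM in the vehicle libraries and at 26.9, 16.6 and 20.3 with E2. With TNFα, PSMD10 stood at 11.9, 13.8 and 11.7 CPM, and with E2+TNFα at 18.4, 27.04 and 14.9. TNFα libraries lay below all others. The log2 fold change of PSMD10 with TNFα was -1.74, and -0.47 with trends removed. PSMD9, another of these factors, was at 1.08 with E2 and at 0.53 with trends removed, where PSMD10 was at -0.95 and 0.23. Another protein-coding gene is annotated on the same strand over 784 bases of PSMD9's exons. PSMD5 was at 0.15 with E2 (adjusted p = 0.435) and at 1.91 with trends removed.

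The 4 activators moved in different directions. PSME1 and PSME2 encode the alpha and beta subunits of 1 cap, known to be induced by interferon and joined in 1 ring, and both genes lie on chromosome 14. Their promoters and that of PSMB10 are shown because all 3 hold the core of the interferon-stimulated response element: GAAA, then any 2 bases, then GAAA, searched on both strands. Of 46 RefSeq promoter windows (GRCh38.p14, 250 bases before to 50 after the start) that matched 38 members, 6 held the core (13.0%), against 3.57% of all 35116 windows. The genes were PSMA4, PSMB4, PSMB10, PSME1, PSME2 and PSMG4. Capitals mark the match, which in PSME1 lies after the start and on the opposite strand, and in PSME2 and PSMB10 just before it.
PSME1, chr14:24135944-24136243, plus strand: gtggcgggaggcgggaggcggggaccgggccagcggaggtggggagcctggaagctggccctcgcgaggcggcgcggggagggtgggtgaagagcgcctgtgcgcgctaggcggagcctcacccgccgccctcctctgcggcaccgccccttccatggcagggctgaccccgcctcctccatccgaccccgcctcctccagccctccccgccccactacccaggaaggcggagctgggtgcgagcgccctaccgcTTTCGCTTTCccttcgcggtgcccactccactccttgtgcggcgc
PSME2, chr14:24146561-24146860, minus strand: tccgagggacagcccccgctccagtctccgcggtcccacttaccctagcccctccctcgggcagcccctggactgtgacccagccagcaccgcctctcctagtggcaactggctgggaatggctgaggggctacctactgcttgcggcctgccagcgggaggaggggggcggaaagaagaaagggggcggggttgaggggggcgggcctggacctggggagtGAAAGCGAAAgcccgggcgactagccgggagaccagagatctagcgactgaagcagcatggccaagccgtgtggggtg
PSMB10, chr16:67936801-67937100, minus strand: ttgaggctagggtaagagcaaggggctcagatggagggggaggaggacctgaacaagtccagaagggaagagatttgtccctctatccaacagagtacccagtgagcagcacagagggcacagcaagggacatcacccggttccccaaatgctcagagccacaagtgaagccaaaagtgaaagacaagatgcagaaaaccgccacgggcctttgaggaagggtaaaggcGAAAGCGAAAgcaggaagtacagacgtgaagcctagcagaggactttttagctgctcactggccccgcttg

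Other motifs searched on both strands were the antioxidant response element core (TGACNNNGC), in 30.4% of the member windows and 13.3% of all, and the CCAAT box (CCAAT), in 39.1% and 34.6%. A degenerate NFκB motif was found in 2.17% and 5.91%. A match is a run of letters and says nothing of binding.

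PSME2 was lower in every treated library. PSME2 stood at 61.96, 52.95 and 59.1 CPM in the vehicle libraries and at 11.3, 10.7 and 9.49 with E2. With TNFα, PSME2 stood at 8.002, 10.8 and 7.07 CPM, and with E2+TNFα at 12.2, 9.17 and 10.6. Vehicle lay above the others with no overlap, and the 9 treated libraries overlapped. PSME2 had log2 fold changes of -2.47 ± 0.18 (SE, adjusted p = 1.18e-08) with E2, -2.74 ± 0.18 (SE, adjusted p = 6.96e-09) with TNFα and -2.45 ± 0.18 (SE, adjusted p = 1.28e-08) with E2+TNFα. At 56.6% GC it was 1 of 2 members over 45% GC that were called lower, with PSMC1, and with trends removed the values were -3.37, -3.41 and -3.15. The genome holds an intronless copy of PSME2 over 363 bases at 96.8% identity, and 168 bases of its exons lie opposite RNF31.

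PSME1 gave other values than its partner, and the difference between the 2 genes was not tested. PSME1 stood at 92.7, 81.9 and 90.1 CPM in the vehicle libraries and at 88.9, 109 and 92.6 with E2. With TNFα, PSME1 stood at 79.5, 92.6 and 109.5 CPM, and with E2+TNFα at 68.2, 48.5 and 51.02. The 3 libraries with E2+TNFα lay below all 9 others, which overlapped. PSME1 was at 0.13 ± 0.15 (SE, adjusted p = 0.44) with E2 and at 0.09 ± 0.15 (SE, adjusted p = 0.597) with TNFα, neither of which passed the test, and fell with E2+TNFα by 0.66 ± 0.15 (SE, adjusted p = 0.00093) on the log2 scale. With trends removed the values were -0.77, -0.52 and -1.33, and all 3 passed (adjusted p = 7.7e-05, 0.00196 and 2.62e-07).

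PSME3, which encodes a nuclear cap that acts without ubiquitin, rose in all treated groups. PSME3 stood at 171, 177 and 173 CPM in the vehicle libraries and at 361, 345 and 365 with E2. With TNFα, PSME3 stood at 320.05, 302 and 317 CPM, and with E2+TNFα at 342, 285 and 328. All vehicle libraries lay below the others. Its log2 fold changes were 1.04, 0.85 and 0.88, and with trends removed they were 0.86, 0.74 and 0.70. PSME4 encodes a large single-chain cap linked to histone degradation. PSME4 stood at 126, 162 and 145 CPM in the vehicle libraries and at 21.9, 18.2 and 33.5 with E2. With TNFα, PSME4 stood at 28.4, 34.98 and 28.7 CPM, and with E2+TNFα at 36.97, 44.6 and 28.01. Vehicle lay above all others. PSME4 fell with E2 by 2.54 on the log2 scale, with TNFα by 2.23 and with E2+TNFα by 1.98. With trends removed it fell by 0.71, 0.57 and 0.49. The inhibitor PSMF1 blocks the core in vitro. PSMF1 stood at 107, 113 and 108 CPM in the vehicle libraries and at 187, 216 and 189 with E2. With TNFα, PSMF1 stood at 182, 165 and 169.8 CPM, and with E2+TNFα at 173, 149.95 and 196. Vehicle lay below all others, and the log2 fold changes were 0.85, 0.65 and 0.66, or 1.02, 0.85 and 0.78 with trends removed.

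The split of the members relative to vehicle ran with GC content. Across the 44 members, which share the same libraries, Spearman's rho between log2 fold change and exon GC content was 0.65 with E2, 0.62 with TNFα and 0.64 with E2+TNFα, and -0.12, -0.08 and -0.14 with trends removed. The 15 members under 45% GC had a median log2 fold change of -1.06 with E2, where all genes under 45% had -1.59, and the 29 others had 0.47, as did all other genes. Of the 7 alpha ring genes 5 were among the 15, and of the 8 beta ring genes 1, PSMB2. The spread within a group differed by GC as well: the highest of 3 libraries over the lowest had a median of 1.85 in E2 for members under 45% GC, up to 5.14, and of 1.22 for the others. In vehicle these medians were 1.13 and 1.09. With trends removed, 4 members were past the thresholds upward with E2 (PSMA5, PSMB2, PSMB5 and PSMD5), against 7.33% of all genes, and 5 downward (PSMA3, PSMC1, PSMC6, PSMD14 and PSME2), against 6.58%.

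**Figure D4:**
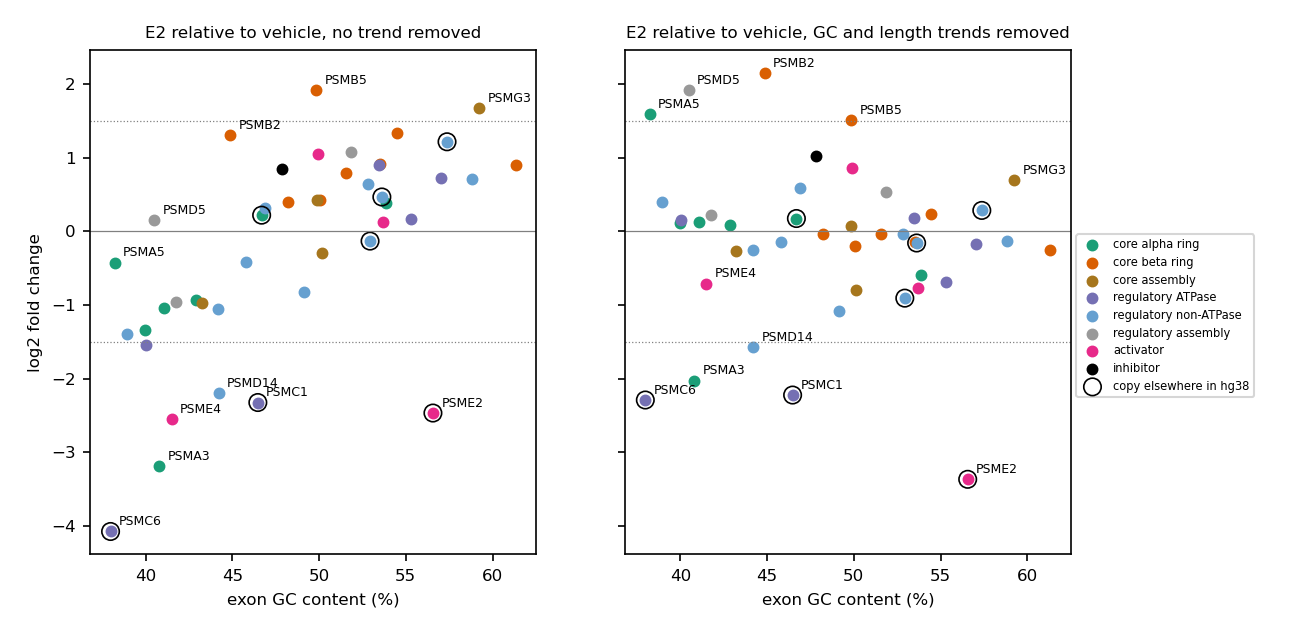
Points give the log2 fold change of each member with E2 relative to vehicle (y axis) against exon GC content (x axis), before and after trends were removed; dotted lines mark 1.5 in either direction and rings mark the 7 members with a copy elsewhere in the genome. The rise with GC on the left, rho 0.65, is -0.12 on the right, where PSME2 at -3.37 is the lowest point.

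The comparisons among the treated groups take no values from the vehicle libraries, although the fit shares their estimate of spread. They too ran with GC content. In E2+TNFα relative to TNFα, Spearman's rho between log2 fold change and GC content was -0.46 across members and -0.21 over all genes. Relative to E2 it was -0.48 and -0.33. With trends removed, rho across members was -0.21 relative to TNFα and 0.23 relative to E2. In E2+TNFα relative to TNFα, no member was past the thresholds in either direction, against 3.51% of all genes upward and 2.01% downward. DESeq2 called none, against 5.53% of all genes. At an unadjusted p under 0.05 there were 9 members, against 46.2% of all genes. At an adjusted p up to 0.1, whatever the size, 3 were higher, against 24.2% of all genes, and 5 lower, against 21.0%. Higher were PSMB5 (0.26), PSMD10 (0.69) and PSMD12 (0.42), and lower were PSMA1 (-0.45), PSMD7 (-0.27), PSME1 (-0.75), PSMG2 (-0.42) and PSMG4 (-0.50), as log2 fold changes. The median of the members was 0.19 and of all genes 0.04. With trends removed PSMB5 and PSMD12 did not pass, at 0.20 and 0.16 (adjusted p = 0.116 and 0.281), and the other 6 did. PSMB5 kept its call here in 7 of 17 alternatives, PSMD12 in 10, PSMD7 in 13 and each of the others in 14 or more. Without TNFα replicate 1 the count of members was 4, without E2+TNFα replicate 1 it was 3, and without E2+TNFα replicate 3 it was 15, against 35.1%, 37.2% and 51.2% of all genes.

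In E2+TNFα relative to E2, no member was past the thresholds, against 0.380% of all genes upward and 0.0177% downward. DESeq2 called none, against 0.451% of all genes. At an unadjusted p under 0.05 there were 16 members, against 19.4% of all genes. At an adjusted p up to 0.1, whatever the size, 8 members were lower and none higher, against 3.37% and 2.72% of all genes. Of these 8, 5 were beta ring genes: PSMB1 (-0.41), PSMB3 (-0.42), PSMB5 (-0.50), PSMB6 (-0.51) and PSMB7 (-0.57). The others were PSMD4 (-0.46), PSME1 (-0.79) and PSMG3 (-0.49). The beta ring median was -0.41, where that of all genes was 0.01. All 8 members called lower were among the 29 at or over 45% GC. With trends removed the beta ring median was -0.22 and that of all genes -0.04. PSMB3 then did not pass, at -0.12 (adjusted p = 0.401). Lower were then 10 members and higher none, against 12.2% of all genes in either direction. New among the 10 were PSMA5 (-0.67) and PSMB2 (-0.45), both under 45% GC, and PSMD2 (-0.19). With no trends removed, the count was 1, PSME1, when only the compared groups were fitted, against 0.947% of all genes. It was likewise 1, PSME1, without E2 replicate 1 or without E2+TNFα replicate 2, against 1.46% and 1.12%. It was 5 without E2+TNFα replicate 1, against 3.77%, and 14 without replicate 3 of that group, against 14.7%.

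PSME1 was the member lower with E2+TNFα in both comparisons, with log2 fold changes of -0.75 ± 0.15 (SE, adjusted p = 0.00115) relative to TNFα and -0.79 ± 0.15 (SE, adjusted p = 0.0161) relative to E2. Both comparisons use the same 3 E2+TNFα libraries. The difference kept its direction and its adjusted p of at most 0.1 in all 17 alternatives run for each, with log2 fold changes from -0.91 to -0.62 relative to TNFα and from -0.96 to -0.56 relative to E2. PSME2, its partner, was at 0.30 ± 0.17 (SE, adjusted p = 0.199) and 0.02 ± 0.18 (SE, adjusted p = 0.964), and PSME3 at 0.03 and -0.17. EMC9 lies opposite 9 bases of PSME1's exons.

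**Figure D5:**
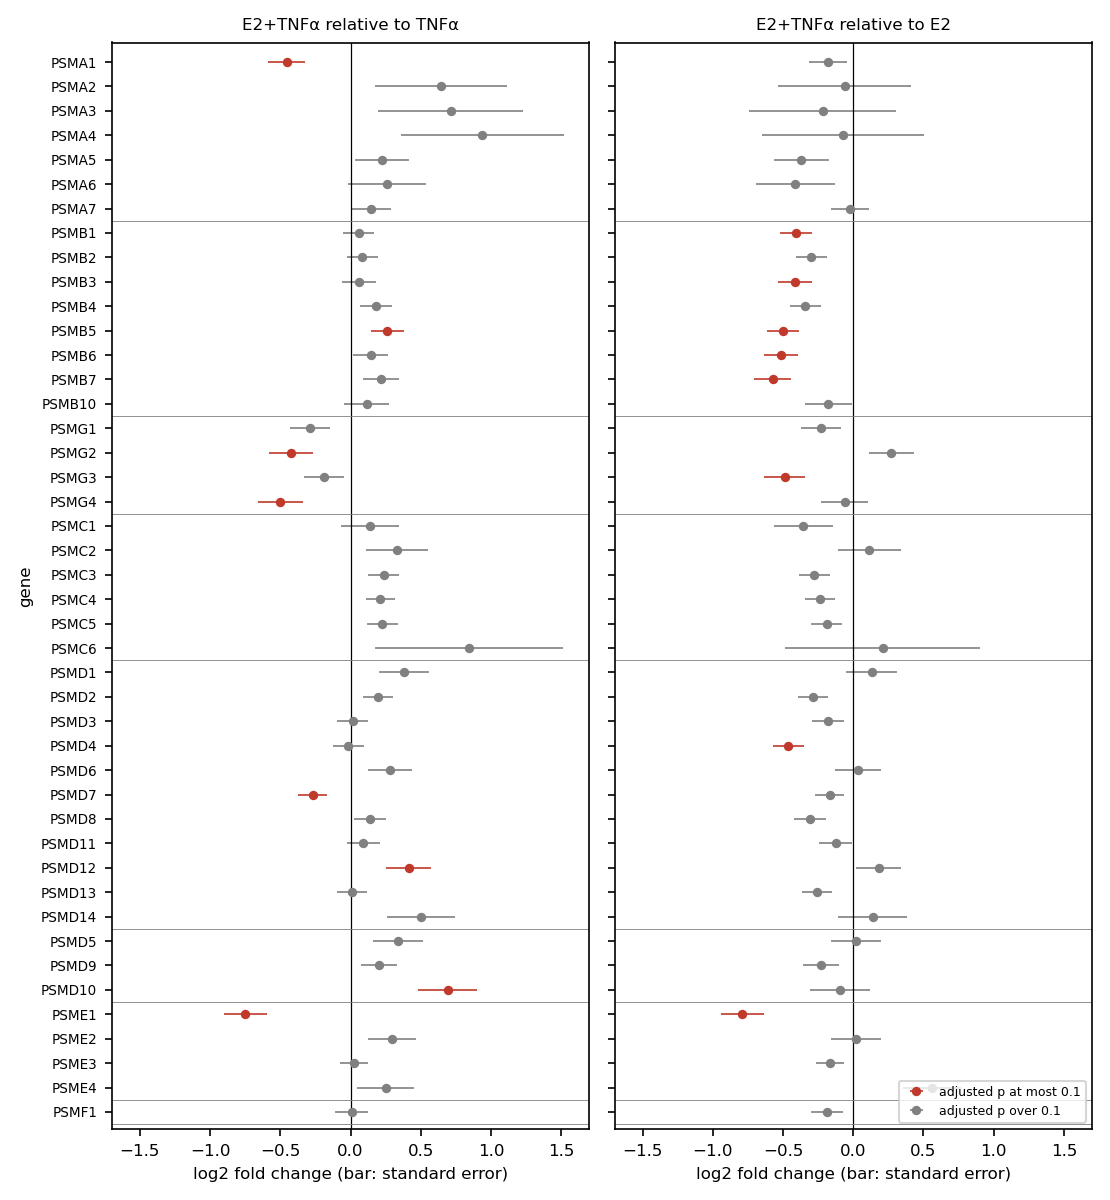
Points give the log2 fold change of each member with its SE (bars) for E2+TNFα relative to TNFα and relative to E2; red marks an adjusted p of at most 0.1. PSME1 lies at -0.75 and -0.79, and the beta ring lies left of 0 relative to E2.

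The effect of TNFα with E2 minus its effect without E2, the interaction, involves the vehicle libraries again. It was past the thresholds upward for 11 members, against 22.5% of all genes, and downward for 2, against 9.29%, and at any size for 16 and 18, against 39.0% and 37.6%. PSMA3, for example, had a TNFα effect of -4.11 without E2 and -0.22 with it. For PSME1 the interaction passed downward at any size only, and was at -0.04 with trends removed (adjusted p = 0.867). Of the 13 members called, 9 held under 45% GC. With trends removed 8 members were called, against 13.7% of all genes, and 5 of these 8 were among the 13.

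Genes that act with the proteasome were taken from a list, of which 26 were tested. With E2, none was past the thresholds upward and 5 were downward (UCHL5, UBE3A, ECPAS, DDI2 and NFE2L2), against 9.87% and 20.6% of all genes, and with TNFα 5 were downward (POMP, UCHL5, DDI2, NFE2L2 and RPS27A), against 20.0%. With E2+TNFα, 5 were downward (UCHL5, ECPAS, DDI2, NFE2L2 and RPS27A), against 17.6%. With trends removed 2 were downward with E2 (DDI2 and NFE2L2), against 6.58% of all genes, and 1 upward (TXNL1), against 7.33%. UCHL5 went from -2.39 to 0.26 (adjusted p = 0.127). At any size 6 rose and 14 fell with E2, against 40.1% and 41.6% of all genes. With TNFα 6 rose and 16 fell, against 40.3% and 41.6%, and with E2+TNFα 6 rose and 15 fell, against 39.0% and 41.5%. The median log2 fold change of the list was -0.58, -0.75 and -0.62, and 0.01, -0.02 and -0.18 with trends removed. NFE2L1 encodes the transcription factor known to raise proteasome genes when the proteasome is blocked. NFE2L1 stood at 526, 515 and 503 CPM in the vehicle libraries and at 423, 486 and 544 with E2. With TNFα, NFE2L1 stood at 879, 759.6 and 884 CPM, and with E2+TNFα at 501, 454 and 633. TNFα libraries were the highest. NFE2L1 rose with TNFα by 0.71 (adjusted p = 0.000173), or by 0.25 with trends removed, and fell by 0.67 on the log2 scale in E2+TNFα relative to TNFα (adjusted p = 0.00108). POMP, the chaperone that matures the core, was at -0.86 with E2, -1.97 with TNFα and 0.81 in E2+TNFα relative to TNFα. With trends removed the value with E2 turned to 1.08 (adjusted p = 3.21e-06) and that with TNFα to 0.14 (adjusted p = 0.366). The value in E2+TNFα relative to TNFα was then 0.35 (adjusted p = 0.0375). In E2+TNFα, 6 genes of the list were higher and 4 lower than with TNFα (adjusted p up to 0.1), against 24.2% and 21.0% of all genes.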

How the data were processed

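Poly(A) RNA of 12 samples of MDA-MB-231-ERβ cells, 3 per group, was sequenced from stranded libraries (TruSeq Stranded mRNA). The authors aligned reads with TopHat2 2.1.0 to hg38 and counted them with featureCounts, per the submitters' processing notes; the strand setting of the counting is not given in the sources used here. The deposited counts are raw reads per gene, and 12451 of 12567 rows were used, after 46 exact repeats and 70 rows that repeated another symbol's locus and counts were dropped. Groups came from the labels.

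Counts were tested with edgeR 4.0.16 (quasi-likelihood, TMM, R 4.3.3) in 1 fit of 4 group means, over the 11303 genes that reached RPKM 1 in 3 or more libraries; limma was 3.58.1. Genes were called when log2 fold change reached 1.5 in either direction with p under 0.05 and adjusted p up to 0.1, the study's thresholds. RPKM and GC content were computed from hg38 exons. Trends over GC content and length were fitted by loess (span 0.3). Copies were found with minimap2 2.31 (at least 200 matched bases and 90% identity). Alternatives used DESeq2 1.42.0, other scalings and filters, a replicate block, a RUV factor from 20 housekeeping genes (the study's methods name such a correction without its genes or factors) and fits without 1 library. The test was checked only on counts simulated with the same spread for every gene and no GC trend, so the check does not cover such a trend. Named with every library's value were members past the thresholds in any comparison, the catalytic subunits, the activators and the inhibitor. Members and lists were chosen with earlier results of these data known.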

Additional observations from a re-analysis of the deposited data

Results flagged for a closer look

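The effect of TNFα relative to its control differed with and without E2 (an interaction term in edgeR's quasi-likelihood test, past the thresholds) for 13 of the 44 members. The differences, on the log2 scale with positive values where TNFα lowered the gene more, or raised it less, without E2, were 1.99 for PSMA2, 3.89 for PSMA3, 1.97 for PSMA4, 2.46 for PSMC1, 1.87 for PSMC2, 4.92 for PSMC6, 1.65 for PSMD10, 1.80 for PSMD12, 2.69 for PSMD14, 2.76 for PSME2 and 2.79 for PSME4. They were -1.66 for PSMB5 and -1.86 for PSMG3. The interaction uses the vehicle libraries, which stood apart from the 9 others. With trends over GC content and length removed, 8 members were past the thresholds, against 13.7% of all genes. Of the 13, 5 kept their call: PSMA3, PSMC1, PSMC6, PSMD14 and PSME2. The rest of the 8 were PSMA5 (-1.65), PSMB2 (-2.13) and PSMD5 (-1.78). PSMA2 (0.21), PSMA4 (0.51) and PSMD10 (0.27) then had an adjusted p over 0.1, as did PSMC2 (-0.07) and PSMD12 (-0.24), which turned. PSMB5 (-1.31), PSMG3 (-0.88) and PSME4 (0.79) passed the adjusted p alone. In this contrast 9 of the 13 held under 45% GC, and the part of GC content was not tested beyond that adjustment. PSMA4 lost its call without any 1 of 7 libraries (1.36 without E2+TNFα replicate 2), and PSMD10 did without E2 replicate 2 (1.41) or E2+TNFα replicate 2 (1.36).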

How the results depend on the processing

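Counts of members called, at the thresholds or at any size, were within 1.5 times of those reported except as follows, and the cause was not tested unless the setting itself leaves out genes or libraries. With a RUV factor from housekeeping genes, the counts relative to vehicle were 4 (E2), 2 (TNFα) and 3 (both agents), and 2 for the interaction. The shares of all genes were 14.5%, 8.88%, 11.3% and 11.3%. At an adjusted p of at most 0.1 the counts were 13, 7, 12 and 9, against 34.1%, 24%, 33.4% and 23.3%. They were 20 in E2+TNFα relative to TNFα and 13 relative to E2, against 55.4% and 13.1%. With GC and length trends removed, alone or with the replicate block, the counts were 7 (TNFα) and 8 (interaction), against 10.5% and 13.7% of all genes. Not all were the same genes: with the trends alone removed, 5 of the members called before kept their call with TNFα and 5 in the interaction. New and higher with TNFα were PSMB2 (1.67) and PSMD5 (1.52). In E2+TNFα relative to vehicle, 4 of the 6 members kept their call, and PSMB2 (1.69) and PSMD5 (1.65) were new and higher. At an adjusted p of at most 0.1 there were 17 or, with the block, 15 in E2+TNFα relative to TNFα, against 59.8% and 57.9%. Leaving out the members with a copy gave 3 in E2+TNFα relative to vehicle, where 7.52% of all genes were higher and 17.6% lower. In E2+TNFα relative to E2, members at an adjusted p of at most 0.1 numbered 5 with library size only, 4 with the replicate block, 15 with DESeq2, 1 with the compared groups only and 2 without the vehicle group, a setting chosen after seeing the data. Of all genes, 5.72%, 2.17%, 11.9%, 0.947% and 1.84% passed in these settings. Leaving out 1 library gave 1 to 14 in this comparison and 3 to 15 in E2+TNFα relative to TNFα. The shares of all genes ran from 1.12% to 14.7% and from 35.1% to 51.2%.

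Among the log2 fold changes that were past the thresholds, or called at any size among the treated groups, directions turned for those that follow; other members that turned with trends removed are given with their values in the results. With the RUV factor they were 0.83 for PSMA3, 0.0187 for PSMC2 and 0.65 for PSMC6 (E2), 1.11 for PSMA2 and 1.82 for PSMA4 (TNFα), and -1.76 for PSMA2, -0.58 for PSMA3, -2.63 for PSMA4, -0.35 for PSMC6 and -0.15 for PSMD10 (interaction). None of these values passed the test (adjusted p from 0.111 to 0.979). With trends removed they were 0.15 for PSMC2 (E2), 0.18 for PSMD12 (TNFα), and -0.0659 for PSMC2 and -0.24 for PSMD12 (interaction), and with the replicate block as well 0.13, 0.18, -0.0432 and -0.24. These did not pass either (adjusted p from 0.175 to 0.857). Same-numbered libraries did not pair (18 pairs, r from -0.48 to 0.47, 5 over 0.1), and 3 of 12 libraries correlated best with their own number. The replicate block moved no other count of members by more than 1.5 times. Depth limits PSMC6 and PSMA3, whose counts were the lowest, down to 15 reads in 1 library.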
